A study of Mus musculus with 10 samples.

Results

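The comparison described here set mouse embryonic stem cells (mESCs) lacking histone H3.3 and given back wild-type (WT) H3.3 against the same kind of cells without any H3.3. Its members were the libraries labelled with the genotypes H3.3 KO + H3.3 WT (2 replicates) and H3.3 KO (2 replicates), which are 4 of the 10 libraries of the series. All genes were considered: 13201 of the 20325 genes in the expression table reached 1 CPM (counts relative to the total of the library) in 2 or more libraries and were tested.

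The series asked what ATRX, DAXX and H3.3 contribute to gene expression in mESCs. The other 6 libraries, with 2 replicates each, came from H3.3 KO cells rescued with a mutant H3.3, Daxx KO cells and Daxx KO cells rescued with WT DAXX. The mutant is labelled L126A-L130A, and the paper writes it as L126A-I130A. The paper reports that this mutant binds DAXX but is not stably placed into chromatin. Polyadenylated RNA was sequenced from every line. The H3.3 lines were 129 x C57BL/6J cells in which both genes that encode H3.3, *H3f3a* and *H3f3b*, no longer give the protein. WT H3.3 with a FLAG-HA tag was delivered by a lentivirus with an EF1 promoter, which does not follow the control of the native genes, and the cells were selected with puromycin and collected within weeks. The sources used here do not say that the H3.3 KO controls went through a mock transduction or selection, so the effects of H3.3, of the virus and of selection cannot be told apart. All lines were grown without feeder cells on gelatin with LIF and 2 inhibitors, CHIR99021 (3 µM) and PD0325901 (1 µM), the medium known as 2i+LIF. Replicates were described as biological duplicates of a line, so they show the spread between such cultures and not between independently derived lines. The p-values of the main test rest on this spread pooled over every group of the series, not on the compared groups alone. A gene said not to pass the test did not pass with that pooled spread.

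H3.3 is the replacement form of histone H3. Canonical H3.1 and H3.2 are made in S phase from clustered replication-dependent genes whose mRNAs mostly end in a stem-loop instead of a poly(A) tail, whereas H3.3 is made throughout the cell cycle from 2 polyadenylated mRNAs and is placed into chromatin independently of DNA replication. The HIRA complex deposits it at active genes and regulatory elements, and the ATRX-DAXX complex deposits it at telomeres and pericentric repeats.

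The 4 libraries held between 15488033 and 17104411 counts, within the 15463688 to 21396527 of all 10. The label of the cells was checked against marker genes: all 14 embryonic stem cell markers in the table were above 1 CPM, with summed levels of 8492 and 9406 CPM in H3.3 KO and 9808 and 9509 CPM with WT H3.3. Of 13 fibroblast (feeder) markers 8 stayed under 1 CPM and *Lum* and *Dcn* were at 0 in all 4 libraries. Their summed level was 1697 and 1667 CPM in H3.3 KO and 2195 and 2465 CPM with WT H3.3, nearly all of it from *Fn1*, which is not specific to fibroblasts, and 0 of them were called. Of the macrophage markers *Csf1r* and *C1qa* were at 0, and the lysosomal protein *Cd68* was the member tested, at 18.8 and 15.8 CPM in H3.3 KO and 8 and 11.2 CPM with WT H3.3.

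The genes for histone H3 itself moved in opposite directions. *H3f3b*, whose counts were far above those of *H3f3a* in these libraries, fell 3.58-fold after WT H3.3 was put back, while 3 replication-dependent H3 genes, *Hist1h3a*, *Hist1h3b* and *Hist1h3h*, rose from levels under 5 CPM. These 3 genes encode canonical H3 and share almost all of their coding sequence with each other but not with the H3.3 genes. The first 90 coding bases of each are shown because the table assigns reads to H3 genes by such differences. Capitals mark bases that differ from *Hist1h3a* (GRCm38, chr13:23761853-23762386, minus strand). The other genes lie at chr13:23752267-23752886, plus strand (*Hist1h3b*), chr13:21717659-21718069, plus strand (*Hist1h3h*), chr1:180800832-180813943, minus strand (*H3f3a*), and chr11:116021912-116027962, minus strand (*H3f3b*).
Hist1h3a: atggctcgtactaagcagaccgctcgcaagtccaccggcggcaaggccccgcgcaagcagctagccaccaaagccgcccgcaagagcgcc
Hist1h3b: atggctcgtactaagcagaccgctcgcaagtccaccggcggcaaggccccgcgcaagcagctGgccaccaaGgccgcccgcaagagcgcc
Hist1h3h: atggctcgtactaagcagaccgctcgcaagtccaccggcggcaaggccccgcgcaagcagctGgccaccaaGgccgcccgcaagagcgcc
H3f3a: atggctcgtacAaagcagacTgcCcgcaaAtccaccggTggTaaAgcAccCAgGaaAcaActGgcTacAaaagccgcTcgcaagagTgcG
H3f3b: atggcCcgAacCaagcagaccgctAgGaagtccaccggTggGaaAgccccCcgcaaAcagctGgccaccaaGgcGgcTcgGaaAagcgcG

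In this stretch *Hist1h3b* and *Hist1h3h* each differ from *Hist1h3a* at 2 bases, *H3f3a* at 19 and *H3f3b* at 17. Over the whole coding sequence of 411 bases, *Hist1h3a* was 97.6% identical to *Hist1h3b* and 98.8% identical to *Hist1h3h*, but 77.1% identical to *H3f3a* and 80.5% identical to *H3f3b*. The longest run of bases shared with *Hist1h3a* was 230 for *Hist1h3h* and 21 for *H3f3b*.

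*H3f3b* stood at 508.7 and 719.6 CPM in the H3.3 KO libraries and at 203.7 and 139.1 CPM with WT H3.3. Each library's CPM were scaled by a factor that sets the typical gene equal between libraries. The libraries labelled H3.3 KO thus held more mRNA of this targeted gene than the rescued ones, so its counts do not check the label, which refers to loss of the protein. Both rescued libraries were below both H3.3 KO libraries, and the fall was a log2 fold change (WT H3.3 minus H3.3 KO, in this and all later uses) of -1.84 with a standard error (SE) of 0.26 and an adjusted p of 0.0311 in edgeR's quasi-likelihood test. *H3f3a* was low in all 4 libraries, at 5.209 and 10.92 CPM in H3.3 KO and 3.618 and 4.354 CPM with WT H3.3. It did not pass the test (log2 fold change -1.01, SE 0.37, adjusted p = 0.292, edgeR). Since a bulk library averages over its cells, fewer cells making an mRNA and less mRNA per cell cannot be told apart in these or any later values.

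*Hist1h3a* was at 0.906 and 1.49 CPM in H3.3 KO and at 83.9 and 90.2 CPM with WT H3.3. This 72.7-fold rise was the largest among the genes that passed the test (log2 fold change 6.18, SE 0.28, adjusted p = 4.6e-05, edgeR). *Hist1h3b* was at 0.736 and 1.12 CPM in H3.3 KO and at 23.2 and 23.4 CPM with WT H3.3, and *Hist1h3h* at 4.81 and 4.66 CPM against 53.4 and 68.4 CPM. Their log2 fold changes were 4.65 (adjusted p = 0.00555, edgeR) and 3.68 (adjusted p = 0.00182, edgeR). The groups lay far apart for each of the 3 genes, with replicates close together.

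Because reads can be split among near-identical H3 genes, the 12 replication-dependent H3 genes in the table were also summed. The sum was 16.1 and 22.8 CPM in H3.3 KO and 187 and 204 CPM with WT H3.3, a log2 fold change of 3.33 (SE 0.21, adjusted p = 0.000905, edgeR). The rise did not extend to every member. Of the 7 genes tested 5 had both rescued libraries above both H3.3 KO libraries, *Hist1h3i* and *Hist1h3d* among them without passing the test, while *Hist1h3c* was at 4.08 and 6.64 CPM in H3.3 KO and 3.62 and 1.92 CPM with WT H3.3. The L126A-L130A rescue, made with the same kind of virus, had summed levels of 178 and 164 CPM, next to those with WT H3.3. The nucleotide sequence of the H3.3 transgene is not given in the sources used here, and whether its reads were assigned to these H3 genes was not tested.

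**Figure D1:**
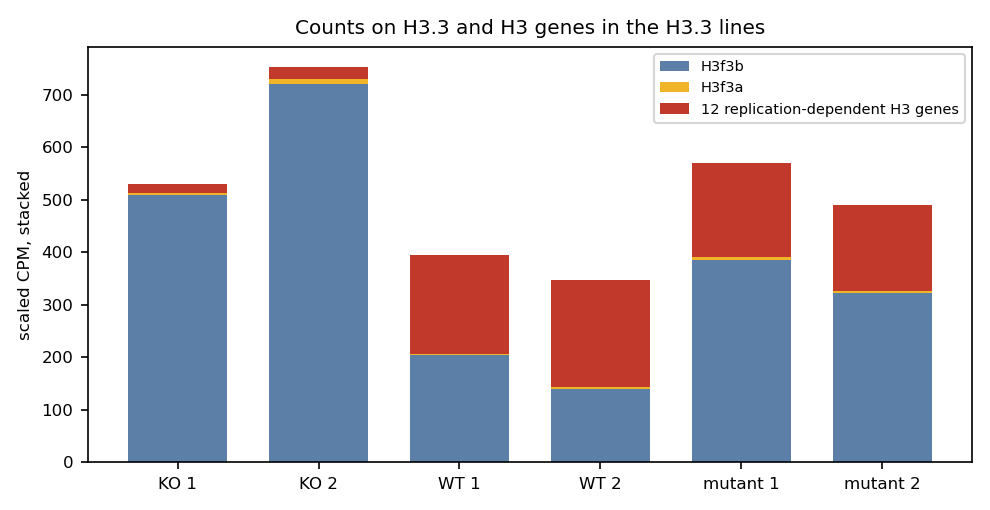
Stacked bars of scaled CPM (vertical axis) for *H3f3b*, *H3f3a* and the sum of the 12 replication-dependent H3 genes, with 1 bar for each library of H3.3 KO, WT H3.3 and L126A-L130A (mutant) cells. The replication-dependent part is a thin band in H3.3 KO and 164 to 204 CPM in the rescued libraries, and the *H3f3b* part is lowest with WT H3.3.

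The mRNAs of the chaperones that handle H3.3 did not pass the test, and these data hold no protein levels. By immunoblot, the paper found much less DAXX protein in H3.3 KO mESCs, and more once WT H3.3 was added. Its RT-qPCR found no significant change of *Daxx* mRNA. Here *Daxx* mRNA was at 61.9 and 61.5 CPM in H3.3 KO and 62.3 and 59.3 CPM with WT H3.3. Log2 fold changes were -0.18 (SE 0.20) for *Atrx*, its partner ATPase, and -0.31 (SE 0.30) for *Hira*, which serves the other deposition pathway. Among 15 chaperones and partners tested, edgeR called 0 genes and DESeq2 0, with an unadjusted p under 0.05 for 2 in each direction. One of these, the chromatin remodeler *Chd2*, which acts with H3.3 at active genes, was at 131 and 110 CPM in H3.3 KO and 188 and 177 CPM with WT H3.3.

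Across all genes, 33 were called, that is, differed at least 2-fold with an adjusted p under 0.05, which is 0.250% of the genes tested. Of these, 5 rose with WT H3.3 (0.0379%) and 28 fell (0.212%). Both rescued libraries lay outside the range of both H3.3 KO libraries for every one of the 33. These genes were called from the same libraries, so this is no separate support. The shares of all genes tested were 29.3% (above) and 26.7% (below). The median log2 fold change of all genes tested was 0.02. An unadjusted p under 0.05 was found for 731 genes that were higher (5.54%) and 1028 that were lower (7.79%). These 33 were a strict set: the same counts gave 213 genes in DESeq2, with all 33 among them. Leaving out H3.3 KO replicate 1, H3.3 KO replicate 2, WT H3.3 replicate 1 or WT H3.3 replicate 2 left 3, 2, 3 or 2 called genes, and *Hist1h3a* was among them each time.

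**Figure D2:**
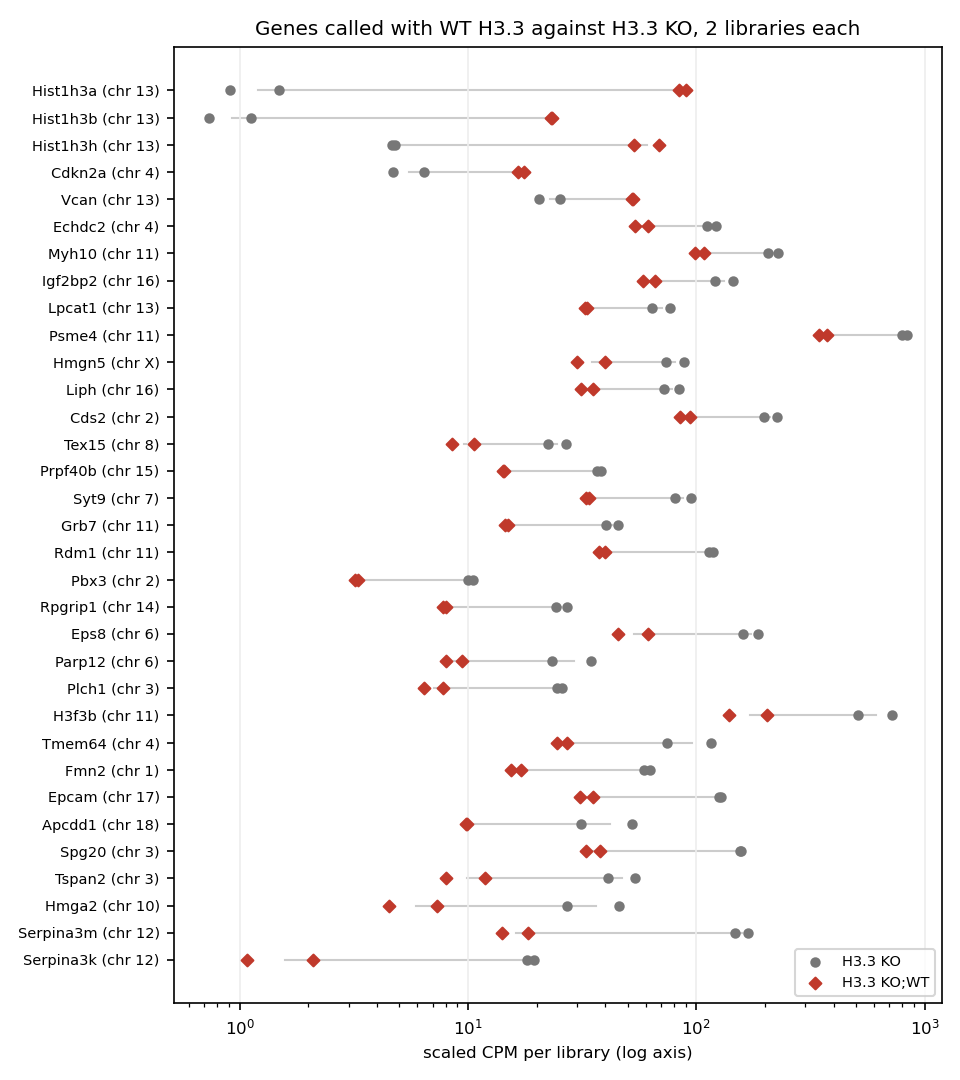
Scaled CPM (log axis) of the 33 called genes in each H3.3 KO library (circles) and each WT H3.3 library (diamonds), with a line joining the group means and the chromosome in brackets. The 5 genes at the top are higher and the 28 below them lower in both WT H3.3 libraries.

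Besides the 3 H3 genes, 2 genes rose. *Cdkn2a*, which encodes the cell-cycle inhibitor p16 and the p53 activator ARF, was at 4.7 and 6.39 CPM in H3.3 KO and 17.6 and 16.6 CPM with WT H3.3. It rose 3.08-fold (log2 fold change 1.62, SE 0.21, adjusted p = 0.0265, edgeR). Its neighbour *Cdkn2b*, which encodes the inhibitor p15, was at 1.53 and 0.931 CPM against 3.17 and 3.6 CPM without passing the test (adjusted p = 0.204, edgeR). *Vcan*, the matrix proteoglycan versican, was at 25.4 and 20.4 CPM in H3.3 KO and 52.9 and 52.3 CPM with WT H3.3, a rise of 2.29-fold (log2 fold change 1.20, SE 0.18, adjusted p = 0.0411, edgeR).

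Of the 28 genes that fell, 5 are described first for their roles in adhesion, the actin cortex and the plasma membrane, a grouping made after the calls were seen. *Epcam*, the epithelial adhesion molecule of undifferentiated mESCs, was at 128.3 and 126.4 CPM in H3.3 KO and 30.9 and 35.5 CPM with WT H3.3. It fell 3.84-fold (log2 fold change -1.94, SE 0.23, adjusted p = 0.02, edgeR). *Eps8*, an actin capping and bundling protein, fell 3.25-fold, from 160 and 187 CPM to 61.6 and 45.3 CPM. *Fmn2*, a formin that nucleates actin filaments, fell 3.73-fold, and *Myh10*, a heavy chain of non-muscle myosin, 2.1-fold. *Tspan2*, a tetraspanin of the plasma membrane, fell 4.76-fold, from 41.2 and 53.8 CPM to 8 and 11.9 CPM. All of these had replicates that lay closer together than the groups. The whole list of actin, myosin and tetraspanin genes did not lean the same way: of 37 tested, 13 were above and 10 below in both rescued libraries, with a median log2 fold change of 0.07.

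*Hmga2*, an architectural chromatin protein and a target of let-7 microRNAs, was at 27.2 and 45.7 CPM in H3.3 KO and 4.51 and 7.31 CPM with WT H3.3, and fell 6.15-fold (log2 fold change -2.62, SE 0.33, adjusted p = 0.0254, edgeR). *Igf2bp2*, an RNA-binding protein and an HMGA2 target in other tissues, fell 2.13-fold, from 120 and 144 CPM to 58.7 and 65.7 CPM. *Hmgn5*, a nucleosome-binding protein encoded on the X chromosome, fell 2.31-fold. Of the 10 tested members of the Lin28, Hmga and Igf2bp list, edgeR called these *Hmga2* and *Igf2bp2* changes and no other, and the median log2 fold change of the list was -0.11.

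The steepest falls among the called genes were in the *Serpina3* cluster on chromosome 12, which encodes secreted serine protease inhibitors. *Serpina3m* was at 169 and 148 CPM in H3.3 KO and 14.2 and 18.3 CPM with WT H3.3, a fall of 9.76-fold (log2 fold change -3.29, SE 0.33, adjusted p = 0.00854, edgeR). *Serpina3k* fell 11.8-fold, from 19.5 and 18.1 CPM to 1.08 and 2.09 CPM. Of the 5 family members tested, *Serpina3c* and *Serpina3n* were also lower in both rescued libraries without passing edgeR's test, and *Serpina3i* was higher, at 2.38 and 1.06 CPM in H3.3 KO and 4.0 and 3.66 CPM with WT H3.3. The family is made of close copies, so the counts of single members are uncertain.

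Several called genes encode enzymes of lipid metabolism, again grouped after the calls were seen. *Cds2*, which makes the CDP-diacylglycerol used for phosphoinositides, fell 2.36-fold, from 225 and 198 CPM to 84.8 and 93.8 CPM. *Plch1*, a phospholipase C that cleaves a phosphoinositide, fell 3.55-fold. *Lpcat1*, which reacylates lysophosphatidylcholine, fell 2.14-fold, and *Liph*, a lipase that makes lysophosphatidic acid, fell 2.36-fold. *Echdc2*, an enoyl-CoA hydratase family member, was the smallest of the called changes, at 122 and 112 CPM in H3.3 KO and 54.1 and 61.5 CPM with WT H3.3.

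*Apcdd1*, a membrane inhibitor of Wnt signalling, fell 4.25-fold, from 31.4 and 52.5 CPM to 9.77 and 9.93 CPM. *Spg20*, which encodes spartin, a protein of endosomes and lipid droplets, fell 4.43-fold, from 158 and 156 CPM to 38 and 32.9 CPM (log2 fold change -2.15, SE 0.17, adjusted p = 0.00182, edgeR), and remained called without H3.3 KO replicate 1, H3.3 KO replicate 2 or WT H3.3 replicate 1. *Psme4*, the PA200 activator of the proteasome, which acts on acetylated histones, was the most highly expressed of the 28 and fell 2.27-fold, from 793 and 838 CPM to 374 and 345 CPM. *Tex15*, needed for meiotic recombination and transposon silencing in male germ cells, fell 2.58-fold, and *Rdm1*, a RAD52-motif protein, 3.01-fold. The other members were *Tmem64*, *Parp12*, *Rpgrip1*, *Pbx3*, *Grb7*, *Syt9* and *Prpf40b*, with log2 fold changes between -1.88 (*Tmem64*) and -1.39 (*Prpf40b*).

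The called genes were read beside a pattern along the genome. By chromosome (positions from GRCm38 by gene symbol, for 99.3% of the genes tested), the genes of chromosomes 11, 16 and 6 were lower with WT H3.3 as a group. The median log2 fold change was -0.31 over 1097 genes of chromosome 11, -0.27 over 391 genes of chromosome 16 and -0.22 over 598 genes of chromosome 6, against -0.03 to 0.12 on each of the other 17 chromosomes. On chromosome 11 83.2% of the genes were lower, on chromosome 16 85.9% and on chromosome 6 73.7%, against 36.2% to 52.1% elsewhere.

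The shift ran along the whole of each chromosome. When the genes of a chromosome were divided in order into 8 equal parts, every part had a negative median, from -0.38 to -0.24 on chromosome 11, from -0.35 to -0.21 on chromosome 16 and from -0.30 to -0.06 on chromosome 6. Levels in single libraries were taken as the median log2 distance of a chromosome's genes (those averaging at least 15 CPM) from their mean over the 6 H3.3 libraries. For chromosome 11 they were 0.26 and 0.22 in H3.3 KO, -0.01 and -0.14 with WT H3.3, and -0.07 and -0.22 with the mutant. For chromosome 16 they were 0.19 and 0.13 in H3.3 KO, -0.06 and -0.12 with WT H3.3, and -0.02 and -0.10 with the mutant. The H3.3 KO libraries thus stood above all 4 rescued libraries on both chromosomes.

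Chromosome 6 differed in that 1 library stood apart. Its levels were 0.04 and 0.03 in H3.3 KO, -0.01 in WT H3.3 replicate 1, -0.21 in WT H3.3 replicate 2, and 0.13 and 0.05 with the mutant. On the other chromosomes the H3.3 KO and WT H3.3 libraries ranged from -0.11 to 0.07. No DNA measurement of these lines was used here, and whether the lines differ in chromosome number was not tested.

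The 3 chromosomes held 15.8% of the genes tested, 41.4% of the genes with an unadjusted p under 0.05 that were lower, and 9 of the 28 called genes that fell: *Grb7*, *H3f3b*, *Myh10*, *Psme4* and *Rdm1* on chromosome 11, *Igf2bp2* and *Liph* on chromosome 16, and *Eps8* and *Parp12* on chromosome 6. When each chromosome's median was removed from its genes, 25 genes were called and 22 of the 33 were among them. *Eps8* stayed called at a log2 fold change of -1.53. *H3f3b* kept a log2 fold change of -1.53 with an adjusted p of 0.0593 (edgeR), and *Psme4*, *Igf2bp2*, *Liph* and *Myh10* dropped under 2-fold, to -0.86, -0.83, -0.98 and -0.75. *Grb7*, *Rdm1* and *Parp12* kept log2 fold changes of -1.22, -1.27 and -1.55 with adjusted p-values of 0.186, 0.0593 and 0.0892 (edgeR). *Cdkn2a*, *Lpcat1* and *Serpina3k*, which lie elsewhere, kept almost the same log2 fold changes, 1.56, -1.14 and -3.56, at adjusted p-values of 0.0575, 0.0575 and 0.0593 (edgeR).

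Gene lists were described by their counts and medians, with no test of a list as a whole. The counts can be read against the shares of all genes with both rescued libraries above (29.3%) or below (26.7%) both H3.3 KO libraries.

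Genes of cholesterol and fatty acid synthesis were higher with WT H3.3 in most members. This pathway turns acetyl-CoA through mevalonate into sterols and isoprenoids, and its enzymes are controlled together by SREBP transcription factors, which are held back when sterols are plentiful. Of 32 members tested, 24 had both rescued libraries above both H3.3 KO libraries and 2 had both below, and the median log2 fold change was 0.56. An unadjusted p under 0.05 was found for 17 members that were higher and 0 that were lower. EdgeR called 0 members and DESeq2 0.

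*Scd1*, which desaturates fatty acids, shows the size of the difference, at 373 and 289 CPM in H3.3 KO and 585 and 516 CPM with WT H3.3. Its groups did not overlap, but the H3.3 KO replicates differed from each other by a sizeable part of the gap.

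The smallest p-values among members with an available promoter and not on chromosome 18 belonged to *Acacb*, *Pmvk* and *Hsd17b7*. They encode the acetyl-CoA carboxylase of the mitochondrial surface, the phosphomevalonate kinase and a sterol reductase. *Acacb* was at 34 and 39.5 CPM in H3.3 KO and 60.6 and 76.9 CPM with WT H3.3 (log2 fold change 0.90, SE 0.20, adjusted p = 0.151, edgeR). *Pmvk* was at 37.2 and 29.7 CPM against 62.1 and 61.4 CPM (log2 fold change 0.88, SE 0.21, adjusted p = 0.161, edgeR). *Hsd17b7* was at 30.1 and 29.9 CPM against 43.5 and 45.6 CPM (log2 fold change 0.57, SE 0.16, adjusted p = 0.193, edgeR). *Fasn*, the fatty acid synthase, went the other way, at 713 and 711 CPM in H3.3 KO and 643 and 555 CPM with WT H3.3, and it lies on chromosome 11.

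The list's median level in single libraries was 0.19 and -0.19 in H3.3 KO, 0.58 and 0.51 with WT H3.3, and 0.13 and -0.18 with the mutant (log2 of CPM plus 1, relative to the mean of H3.3 KO). The L126A-L130A libraries lay within the range of the H3.3 KO libraries, and both WT H3.3 libraries lay above it. Without H3.3 KO replicate 2 the median log2 fold change of the list was 0.36, and without H3.3 KO replicate 1 it was 0.67.

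The promoters of these 3 genes are shown because they have the smallest p-values among the members so selected. Where a gene had more than 1 start, the start with the most matches to the letters searched is shown. Each is 250 bases before to 50 after a transcription start in RefSeq (GRCm38.p6), printed along the gene's strand, with capitals at the CCAAT box (CCAAT, or ATTGG on the other strand) and at the E-box CACGTG. *Acacb* is at chr5:114165268-114165567, plus strand, *Pmvk* at chr3:89454291-89454590, plus strand, 1 of its 2 starts, and *Hsd17b7* at chr1:169969156-169969455, minus strand.
Acacb: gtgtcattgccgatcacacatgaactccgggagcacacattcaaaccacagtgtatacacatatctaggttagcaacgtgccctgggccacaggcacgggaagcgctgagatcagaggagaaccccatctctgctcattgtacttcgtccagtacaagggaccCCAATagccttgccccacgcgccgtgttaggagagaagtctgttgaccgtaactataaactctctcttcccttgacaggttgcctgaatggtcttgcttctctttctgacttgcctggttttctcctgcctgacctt
Pmvk: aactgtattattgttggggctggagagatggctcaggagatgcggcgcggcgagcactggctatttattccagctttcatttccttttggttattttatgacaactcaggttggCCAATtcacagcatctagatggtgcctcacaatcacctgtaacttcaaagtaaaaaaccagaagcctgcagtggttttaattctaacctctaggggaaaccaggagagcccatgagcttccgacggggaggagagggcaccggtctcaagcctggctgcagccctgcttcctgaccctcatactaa
Hsd17b7: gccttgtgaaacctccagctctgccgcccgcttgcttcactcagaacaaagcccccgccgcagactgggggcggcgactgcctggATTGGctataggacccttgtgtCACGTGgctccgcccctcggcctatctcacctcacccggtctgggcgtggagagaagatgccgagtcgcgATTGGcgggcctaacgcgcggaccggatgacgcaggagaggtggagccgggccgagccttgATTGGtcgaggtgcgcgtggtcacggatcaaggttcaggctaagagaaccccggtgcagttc

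*Acacb* and this start of *Pmvk* hold 1 CCAAT box each, and *Hsd17b7* holds 3 with 1 E-box. The other start of *Pmvk* holds 0 of either. Promoters were found for 20 of the 32 genes, 25 promoters in all. CCAAT on either strand was in 72.0% of them and in 37.4% of all 32851 promoters, CACGTG in 4 of the 25 and in 7.15% of all, and the sterol element TCACNCCAC in 0 of the 25 and in 1.24% of all. The letter matches are descriptions of these windows and not binding sites.

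Genes of epithelial junctions and adhesion were lower with WT H3.3 in more members than not. Of 40 members tested, 22 had both rescued libraries below both H3.3 KO libraries and 4 had both above, with a median log2 fold change of -0.46. EdgeR called *Epcam* and *Eps8*, and DESeq2 called 5, all lower. An unadjusted p under 0.05 was found for 9 that were lower and 1 that was higher.

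*Esrp1*, an epithelial splicing regulator, was at 26.3 and 20.7 CPM in H3.3 KO and 4.25 and 6.21 CPM with WT H3.3 without passing the test (log2 fold change -2.16, SE 0.62, adjusted p = 0.206, edgeR). *Jup*, the plakoglobin of desmosomes and adherens junctions, was at 209 and 233 CPM against 146 and 135 CPM and lies on chromosome 11. *Cdh1*, which encodes E-cadherin and holds mESC colonies together, was at 407 and 379 CPM in H3.3 KO and 310 and 335 CPM with WT H3.3 (log2 fold change -0.28, SE 0.14, adjusted p = 0.438, edgeR). The list's levels in single libraries were 0.01 and -0.01 in H3.3 KO, -0.46 and -0.29 with WT H3.3, and -0.05 and 0.12 with the mutant. With members on chromosomes 6, 11 and 16 left out, the median log2 fold change was -0.38.

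**Figure D3:**
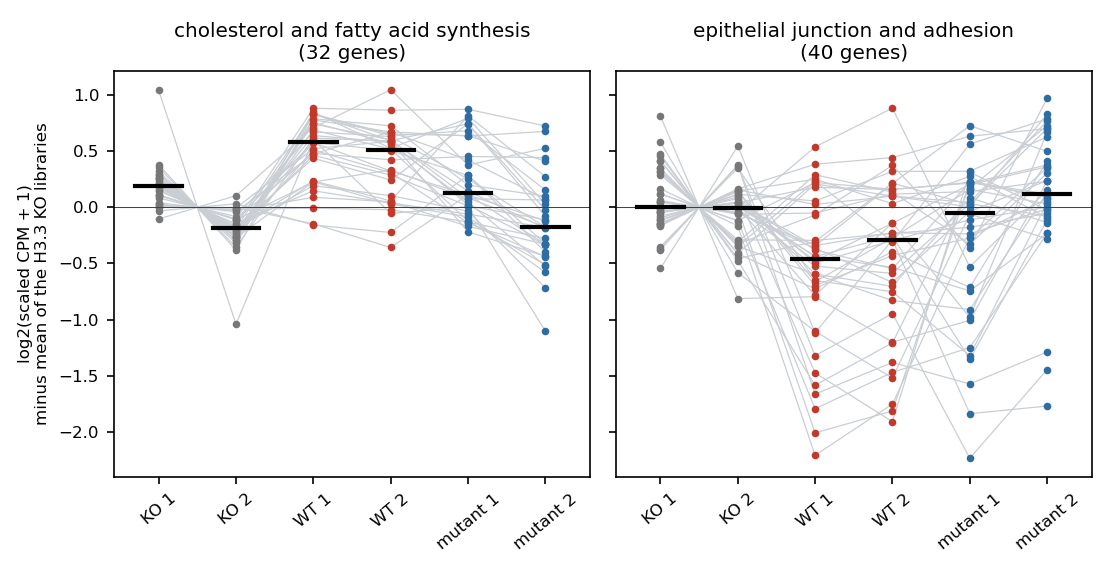
Log2 of scaled CPM plus 1, minus the gene's mean in H3.3 KO, for the members of the cholesterol and fatty acid list (32 genes) and the epithelial list (40 genes), with a point for each gene, lines joining a gene across libraries and bars at the median. The WT H3.3 medians are 0.58 and 0.51 for the first list and -0.46 and -0.29 for the second, and the mutant medians lie nearer to 0.

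Most cytosolic ribosomal protein genes were slightly higher with WT H3.3. Of 79 tested, 65 had both rescued libraries above both H3.3 KO libraries, 8 had both below, and the median log2 fold change was 0.23. EdgeR called 0 and DESeq2 1, and an unadjusted p under 0.05 was found for 18 that were higher and 0 that were lower. *Rpl9* was at 795 and 711 CPM in H3.3 KO and 1027 and 1011 CPM with WT H3.3, and *Rps2*, among the most abundant, at 2538 and 2614 CPM against 3149 and 3165 CPM. The list's levels were 0.23 and 0.21 with WT H3.3 and 0.17 and 0.12 with the mutant, against 0.00 in both H3.3 KO libraries. *Rps27* was listed at 0 in 3 of the 4 libraries and at 16.7 CPM in WT H3.3 replicate 2, and its fitted change carries no information.

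Genes of mitosis had a similar small shift, and those of DNA replication did not. For 31 mitosis genes the median log2 fold change was 0.22, with 22 above and 4 below in both rescued libraries. EdgeR and DESeq2 called 0, and an unadjusted p under 0.05 was found for 5 that were higher and 2 that were lower. For 46 genes of DNA replication and S phase the median was -0.11, or -0.02 without members on chromosomes 6, 11 and 16, with 4 above and 16 below. EdgeR and DESeq2 called 0 of these, with an unadjusted p under 0.05 for 1 higher and 4 lower.

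**Figure D4:**
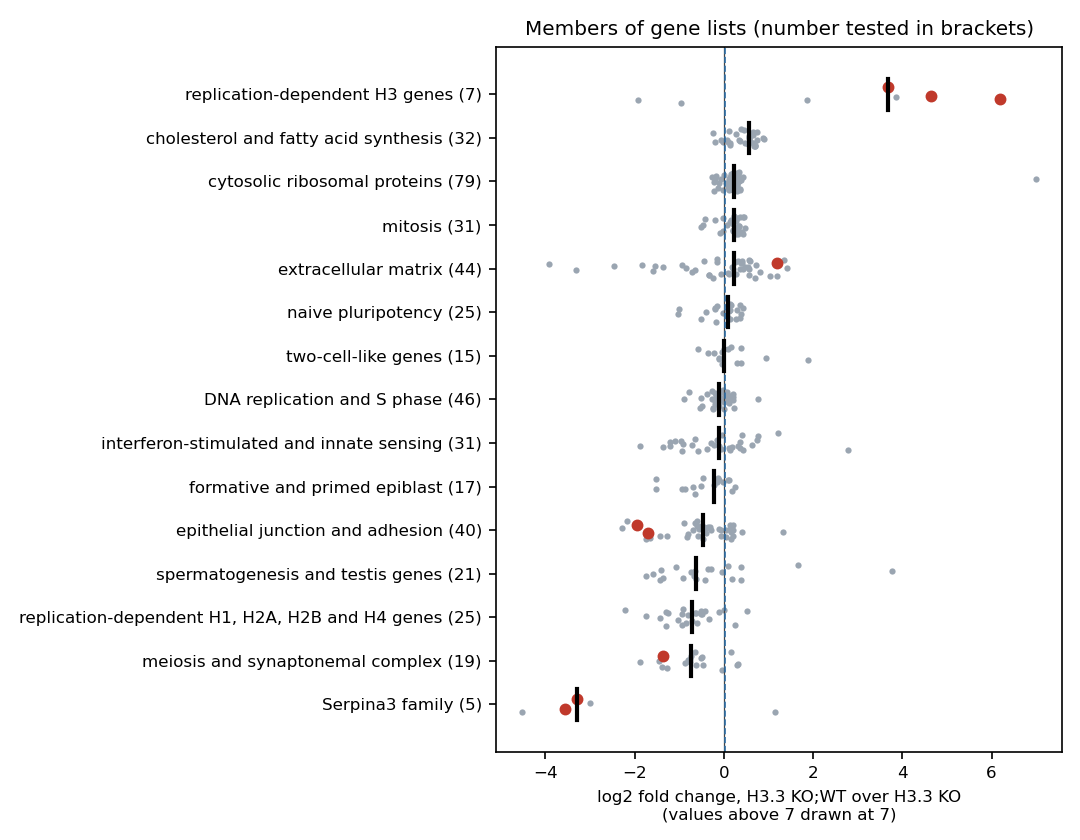
Log2 fold changes (WT H3.3 over H3.3 KO, values above 7 drawn at 7) of the tested members of 15 gene lists, with a point for each gene, larger points for called genes and a bar at each median. The replication-dependent H3 genes have the highest of these medians, 3.68, and the *Serpina3* family the lowest, -3.29.

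The clustered histone genes other than H3 did not follow the H3 genes. Of 55 replication-dependent genes for H1, H2A, H2B and H4 listed, 25 were tested, most at a few CPM. In 16 of them both rescued libraries were below both H3.3 KO libraries and in 1 both were above, with a median log2 fold change of -0.72. EdgeR and DESeq2 called 0, and an unadjusted p under 0.05 was found for 4 that were lower and 0 that were higher. *Hist1h4i* was at 8.1 and 8.5 CPM in H3.3 KO and 3.87 and 2.26 CPM with WT H3.3. With genes averaging at least 5 CPM alone the median of the list was 0.12, so the direction belongs to its low-count members.

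The germline lists described here had negative medians in the main fit, nearest 0 in the piRNA and oocyte lists. Their counts stand beside 29.3% above and 26.7% below for all genes tested. Of 24 piRNA pathway and germ granule genes tested, 4 were above and 8 below, with a median log2 fold change of -0.22. Of 10 oocyte and maternal-effect genes tested, 1 was above and 4 below. Their median was -0.17, or 0.07 for genes averaging at least 5 CPM. EdgeR and DESeq2 called 0 in both lists. An unadjusted p under 0.05 was found for 4 lower members of the piRNA list and 3 of the oocyte list, and for 0 higher in either. Among 19 tested genes of meiosis and the synaptonemal complex, 12 had both rescued libraries below and 2 had both above, with a median log2 fold change of -0.74. EdgeR called *Tex15* alone and DESeq2 called 1 gene, with an unadjusted p under 0.05 for 5 that were lower and 0 that were higher. *Syce1*, of the central element of the synaptonemal complex, was at 35.8 and 39.3 CPM in H3.3 KO and 22.3 and 21 CPM with WT H3.3, and *Stra8*, the switch into meiosis, at 14.7 and 17.5 CPM against 3.62 and 5.05 CPM. Neither passed the test. The list's levels were -0.72 and -0.42 with WT H3.3 and -1.44 and -0.83 with the mutant, so the mutant libraries lay furthest from H3.3 KO.

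For 21 tested spermatogenesis and testis genes the median was -0.63, but without H3.3 KO replicate 2 it was 0.04. EdgeR called 0 of them and DESeq2 3, with an unadjusted p under 0.05 for 6 that were lower and 0 that were higher. *Sohlh2*, a transcription factor of germ cell differentiation, was at 138 and 162 CPM in H3.3 KO and 35.2 and 53.9 CPM with WT H3.3 (log2 fold change -1.75, SE 0.44, adjusted p = 0.173, edgeR). *Brdt*, the testis bromodomain protein, was at 15.6 and 17.9 CPM against 5.9 and 5.23 CPM. The groups did not overlap for either gene, which was part of the rule for naming list members.

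Pluripotency genes differed little. Of 25 naive pluripotency genes tested, 7 were above and 5 below in both rescued libraries, with a median log2 fold change of 0.08. EdgeR called 0 and DESeq2 1, with an unadjusted p under 0.05 for 2 that were higher and 1 that was lower. *Pou5f1*, which encodes OCT4, was at 939 and 1017 CPM in H3.3 KO and 1311 and 1236 CPM with WT H3.3 (log2 fold change 0.38, SE 0.15, adjusted p = 0.319, edgeR). *Nanog* was at 797 and 967 CPM against 913 and 951 CPM, with overlapping groups, and *Sox2* at 374 and 482 CPM against 515 and 515 CPM. *Pecam1*, a surface protein of naive cells encoded on chromosome 11, was the lower one, at 331 and 289 CPM against 134 and 169 CPM (log2 fold change -1.03, SE 0.17, adjusted p = 0.0621, edgeR). Of 17 genes of the formative and primed epiblast, 0 were above and 6 below, with a median of -0.23. EdgeR and DESeq2 called 0 of them, and an unadjusted p under 0.05 was found for 3 that were lower and 0 that were higher.

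Matrix genes did not lean clearly to either side. Of 44 tested, 15 were above and 13 below, beside 29.3% and 26.7% of all genes tested. EdgeR called *Vcan* alone, and DESeq2 called 1 higher and 4 lower. An unadjusted p under 0.05 was found for 9 that were higher and 6 that were lower. The list's median was 0.23, and -0.11 without WT H3.3 replicate 2. *Lama1*, a laminin chain made by primitive endoderm, was at 57.5 and 81.9 CPM in H3.3 KO and 147 and 208 CPM with WT H3.3, and its partner *Lamb1* at 38 and 28.9 CPM against 66.4 and 86.8 CPM. Neither passed the test. The 13 primitive endoderm markers, to which these 2 genes belong, summed to 106 and 127 CPM in H3.3 KO. With WT H3.3 they summed to 224 and 305 CPM, with 5 of the 13 under 1 CPM and 0 called. Nearly all of each sum came from *Lama1* and *Lamb1*. For *Gata4*, *Gata6*, *Sox17*, *Pdgfra* and *Dab2* the groups overlapped, and *Amn* was lower with WT H3.3. The part of primitive endoderm cells in the matrix values was not tested. *Fbn1*, the microfibril protein fibrillin, was lower, at 13.8 and 16.1 CPM against 6.79 and 4.88 CPM (log2 fold change -1.36, SE 0.28, adjusted p = 0.121, edgeR).

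Lists of chromatin and silencing genes stayed near the median of all genes. The median log2 fold change was 0.00 for 33 Polycomb genes, -0.04 for 24 genes of H3K9 methylation and retroelement silencing, -0.04 for 18 genes of DNA methylation, -0.03 for 26 genes of PML bodies and SUMO and 0.05 for 19 telomere maintenance genes. EdgeR and DESeq2 called 0 genes in each of these 5 lists, and an unadjusted p under 0.05 was found for 0 to 2 higher and 1 to 3 lower in each. Among 31 interferon-stimulated genes the median was -0.12, with 8 above and 12 below. EdgeR called 0 of these and DESeq2 1 higher and 2 lower, with an unadjusted p under 0.05 for 2 that were higher and 8 that were lower. *Oas1a*, a sensor of double-stranded RNA, was at 15.1 and 20.5 CPM in H3.3 KO and 4.25 and 5.46 CPM with WT H3.3 without passing the test.

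The L126A-L130A rescue gives the values beside which those of WT H3.3 can be read. It shares its H3.3 KO controls with the WT rescue, so likeness between their changes was not tested, and the direct difference between the rescues was tested instead. Of all genes tested, 68 were called between WT and L126A-L130A H3.3 (0.515%), and 13 of the 33 called genes passed this test, which uses the same WT H3.3 libraries.

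*Epcam* was at 149 and 138 CPM with the mutant, above its H3.3 KO libraries and far above the 30.9 and 35.5 CPM with WT H3.3, and the direct difference was -2.12 on the log2 scale (adjusted p = 0.0153, edgeR). *Hmga2* was at 37.6 and 30.9 CPM with the mutant, within its H3.3 KO range, with a direct difference of -2.53 (adjusted p = 0.0234, edgeR). *Apcdd1*, *Tmem64*, *Cds2*, *Lpcat1*, *Echdc2*, *Eps8*, *Fmn2*, *Spg20*, *Rpgrip1*, *Syt9* and *Hmgn5* also differed between the rescues, all lower with WT H3.3. By contrast, *Serpina3m* was at 8.15 and 13 CPM with the mutant and *Myh10* at 91.2 and 113 CPM, close to their levels with WT H3.3. Their direct differences were 0.61 (SE 0.32) and 0.02 on the log2 scale, neither past the test.

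*H3f3b* was intermediate, at 386 and 324 CPM with the mutant, between the H3.3 KO and WT H3.3 libraries without overlap, and its direct difference of -1.05 did not pass the test (adjusted p = 0.123, edgeR). *Cdkn2a* was also intermediate, at 8.42 and 9.63 CPM with the mutant (direct difference 0.92, SE 0.21, adjusted p = 0.107, edgeR).

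Restoring DAXX to Daxx KO cells shares no library with this comparison, although those lines have another strain background (129/SvEv). Of the 28 genes that fell with WT H3.3, 22 also had a change below 0 with DAXX, as did 52% of all genes tested. The other 6 were *Cds2*, *Plch1*, *Grb7*, *Prpf40b*, *Tmem64* and *Hmgn5*, with log2 fold changes from 0.10 to 0.52 with DAXX. The change with WT H3.3 differed from that with DAXX for 6 genes (0.0455% of those tested). *H3f3b* had a log2 fold change of -1.79 with DAXX (adjusted p = 0.0244, edgeR), next to -1.84 with WT H3.3, and *Epcam* -1.64 (adjusted p = 0.0231, edgeR), next to -1.94. *Tspan2*, *Apcdd1*, *Rpgrip1*, *Echdc2* and *Eps8* had log2 fold changes of -2.40, -1.75, -1.65, -1.67 and -1.18 with DAXX. *Hmga2* had -0.10 with DAXX (adjusted p = 0.859, edgeR) against -2.62 with WT H3.3, a difference that was not called.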

How the data were processed

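RNA-seq of 10 mESC libraries in 5 groups of 2 was used. The authors aligned the reads with Bowtie and quantified genes with RSEM (versions not given in the sources used here; build mm9 per the labels), and deposited 1 table of expected counts per gene. These estimated counts share reads among similar genes, and whether strand was used is not stated. The authors identified changed genes with EBSeq. Here the counts were rounded, genes reaching 1 CPM in 2 or more libraries were kept, and edgeR 4.0.16 (R 4.3.3) fitted all 10 libraries with median-of-ratios factors and no covariate. Quasi-likelihood tests were adjusted by Benjamini-Hochberg over 13201 genes. Genes called had to differ 2-fold, the study's own limit, with an adjusted p below 0.05. Alternatives were DESeq2 1.42.0, other factors, other filters, fewer libraries, a replicate term and, chosen after seeing the data, factors over all genes and removal of chromosome medians. Figures used matplotlib 3.10.9.

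Named genes were the H3 and H3.3 genes with *Daxx*, *Atrx* and *Hira*, every called gene, the called members of each list with up to 3 further members of smallest p whose groups did not overlap, the 3 most abundant members of each list, and the 10 genes of smallest p in each direction. *Scd1*, *Nanog*, *Sox2*, *Rps27* and *Bdh2* fall outside this rule and were chosen after their values were seen. Members and lists were chosen with earlier results of these data known. The libraries held 15463688 to 21396527 counts, and replicates of no group were identical. Positions and promoters come from GRCm38 by gene symbol, not from mm9. Some genes are not reported here.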

Additional observations from a re-analysis of the deposited data

Results flagged for a closer look

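For 6 genes the change with WT H3.3 differed from the change with DAXX in the same edgeR fit, tested as the difference of both log2 fold changes (WT H3.3 minus H3.3 KO, less DAXX rescue minus Daxx KO). The H3.3 and Daxx lines have different strain backgrounds, so the difference of the effects and of the strains cannot be told apart. An unadjusted p under 0.05 was found for 1839 of the 13201 genes tested, beside 1759 in the test of WT H3.3 against H3.3 KO.

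The difference was 8.37 for *Hist1h3a* (adjusted p = 0.000128, edgeR), 5.51 for *Hist1h3b* (adjusted p = 0.0245, edgeR) and 4.90 for *Hist1h3h* (adjusted p = 0.00586, edgeR). All 3 H3 genes rose with WT H3.3, while *Hist1h3a* was at 2.11 and 2.0 CPM in Daxx KO and at 0.594 and 0.281 CPM with DAXX.

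For *Serpina3m* it was 6.99 (adjusted p = 0.0245, edgeR). This gene fell in both systems, to 14.2 and 18.3 CPM with WT H3.3, but from 93.2 and 54.7 CPM in Daxx KO to 0.0991 and 0 CPM with DAXX. Since the levels with DAXX are at or near 0, the size of the fitted difference is uncertain.

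For *Cdkn2a* it was 2.33 (adjusted p = 0.0485, edgeR). The gene was at 46.6 and 58.6 CPM in Daxx KO and 31.3 and 33.4 CPM with DAXX, higher in all 4 Daxx libraries than in the WT H3.3 libraries (17.6 and 16.6 CPM).

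For *Bdh2*, a cytosolic dehydrogenase, it was -4.11 (adjusted p = 0.0417, edgeR). It was at 5.61 and 6.15 CPM in H3.3 KO and 4.32 and 2.84 CPM with WT H3.3 without passing the test, and at 0.665 and 0.943 CPM in Daxx KO and 8.87 and 8.19 CPM with DAXX.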

How the results depend on the processing

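All 33 called genes kept their direction in every alternative run, and each run used the same counts or part of them. Counts of called genes, with those higher and lower, were 53 (10 and 43) with no filter on low counts, 213 (51 and 162) in DESeq2, 60 (10 and 50) with the spread from the 6 H3.3 libraries, 360 (101 and 259) with the spread from the 4 libraries alone, and 6 (3 and 3) for a change beyond 1.5-fold by glmTreat. They were 35 with TMM factors, 24 with library size alone and 27 with factors over all genes. Leaving out 1 library gave 2 to 3 called genes, 1 to 2 of them higher and 0 to 2 lower, where the lone sample of a group is assumed to vary like the other groups. The chi-square per gene between replicates, which is larger where replicates differ more, was 73.9 in Daxx KO, 33.5 with the mutant and 25.5 with DAXX. It was 18.5 in H3.3 KO and 10.9 with WT H3.3. The main fit pooled the spread of all these groups. The cause of the differences between the counts of called genes was not tested. The 6 genes whose change differed from that with DAXX became 262 in DESeq2 and 1 to 2 without 1 library.

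With the replicate number as a block, 105 genes were called (16 higher and 89 lower) and 144 differed from DAXX. Deviations of same-numbered libraries correlated at 0.28 between H3.3 KO and WT H3.3. Those of H3.3 KO correlated at -0.04 with Daxx KO, -0.01 with the DAXX rescue and 0.07 with the mutant. All other pairs of groups lay between 0.27 and 0.57. No label ties the numbers to a shared day or batch, so the main fit did not pair the samples. Whether same-numbered libraries were handled together was not tested.

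Among the genes named, 3 values changed sign, all near 0 and none called: *Daxx* to 0.0139 without WT H3.3 replicate 2, *Nanog* to -0.0531 without H3.3 KO replicate 1, *Fasn* to 0.0689 with chromosome medians removed. Leaving out 1 library gave -0.0558 to 0.0139 for *Daxx* and -0.0531 to 0.226 for *Nanog*.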

Other observations

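Imprinted genes, which are expressed from the allele of 1 parent, had log2 fold changes from -1.13 to 2.06. The 3 genes described below all rose with WT H3.3, although more members were below than above. Of 35 tested, 8 were above and 14 below in both rescued libraries, beside 29.3% and 26.7% of all genes tested. The median log2 fold change of the list was -0.06. EdgeR called 0 and DESeq2 3, all higher, with an unadjusted p under 0.05 for 4 that were higher and 3 that were lower. *Grb10*, a growth-restraining adaptor of insulin receptors on chromosome 11, was at 11.7 and 23.3 CPM in H3.3 KO, 49.2 and 60.9 CPM with WT H3.3 and 1.82 and 2.19 CPM with the mutant. Its change with WT H3.3 was 1.66 on the log2 scale (SE 0.29, adjusted p = 0.0729, edgeR), upward on a chromosome whose genes were lower as a group. *Peg12* was at 2.72 and 2.79 CPM in H3.3 KO, 9.01 and 9.64 CPM with WT H3.3 and 1.62 and 0.821 CPM with the mutant. *Plagl1*, a zinc finger regulator of growth, was at 24.9 and 42 CPM in H3.3 KO and 81.4 and 66.2 CPM with WT H3.3. The groups of WT H3.3 and H3.3 KO did not overlap for these 3 genes, which was part of the rule for naming list members.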
